A study of Mus musculus with 10 samples.

Results

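The subunits of the mitochondrial respiratory chain and ATP synthase were taken as one group of genes and followed through the 4 groups of the experiment. Members were the 13 protein-coding genes of the mitochondrial genome and every nuclear gene with a symbol of an Nduf, Sdh, Uqcr, Cox4 to Cox8 or Atp5 subunit (symbols ending in -ps left out), which gave 100 of the 48795 genes in the count table. Of these, 13 were mitochondrially encoded and 87 nuclear encoded, and 92 passed the filter of at least 10 counts in at least 2 libraries (13 mitochondrially and 79 nuclear encoded). Of the nuclear encoded members, 4 rows are annotated as processed pseudogenes, and 1 of them, Ndufb4c, was tested. The 8 untested members were Cox4i2, Cox6a2, Cox6c2, Cox7b2, Cox8b, Cox8c, Ndufa11b and Ndufs6b. The filter selected little among the members, since every tested member except Cox7a1 had at least 10 counts in each of the 10 libraries.

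The libraries came from polyA RNA of neural stem and progenitor cell (NSC/NPC) cultures of the subependymal zone of 10-week-old mice. WT PRO (n = 3) and p27KO PRO (n = 2) were proliferating neurospheres after 3 days in vitro (DIV) with EGF at 20 ng/ml and FGF at 10 ng/ml. WT DIFF (n = 3) and p27KO DIFF (n = 2) were plated on Matrigel with FGF for 2 days and collected 24 h after mitogens were withdrawn and 2% fetal bovine serum was given (2 + 1 DIV). PRO and DIFF thus differ in substrate, mitogens and serum at once, and these cannot be told apart. p27KO denotes mutation of Cdkn1b, which encodes the CDK inhibitor p27.

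Respiratory complexes I, III and IV pump protons across the inner mitochondrial membrane while electrons pass from NADH or succinate to oxygen, and ATP synthase uses the resulting gradient to make ATP. Complex II, succinate dehydrogenase, passes electrons without pumping and is wholly nuclear encoded, whereas the other complexes combine subunits of both genomes. The mitochondrial genes are transcribed as long precursors, most from the heavy strand and mt-Nd6 from the light strand, that are cut into single mRNAs. In adult neurogenesis, neural stem cells are known to rely more on glycolysis than the neuronal lineage does.

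Some library facts bear on what follows. Totals ran from 19190068 to 25291674 counts. Cdkn1b stood at 103 to 112 CPM (counts scaled to a common library total) in WT PRO and 90.7 to 114 CPM in p27KO PRO, which overlap, and at 205 to 209 CPM in WT DIFF and 137 to 140 CPM in p27KO DIFF, which do not. Its counts were thus present in the libraries labelled p27KO. Xist was at 1.16 to 2.57 CPM in the WT and 2258 to 3595 CPM in the p27KO libraries, while the 4 Y-linked genes Ddx3y, Eif2s3y, Kdm5d and Uty summed to 189 to 533 CPM in WT and 0.148 to 0.585 CPM in p27KO. Genotype and the sex of the cultures therefore cannot be told apart, and the 3 X-linked members tested are given separately. The labels do not say whether replicates were separate cultures or animals, so p-values measure only the spread between these samples, which may be technical.

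The counts of several members are divided with near-identical copies, and those sequences set how far each row can be read. A stretch of chromosome 1 (GRCm38, chr1:24611535-24616197) carries pseudogenes that match part of the mitochondrial genome. Over all libraries, 97.6% of the counts of mt-Co2 and its copies, which encodes a catalytic subunit of complex IV, lay on the copies. The first 60 bases of mt-Co2 (chrM:7013-7072, plus strand) and of Gm28661 (chr1:24615506-24615565, minus strand) show why a read cannot be placed: the 681 bases compared had 0 mismatches.
mt-Co2: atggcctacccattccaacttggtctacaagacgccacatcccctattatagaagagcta
Gm28661: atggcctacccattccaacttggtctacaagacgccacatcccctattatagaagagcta
mt-Nd3, a complex I subunit, and Gm28438 differ at 1 of 345 bases, T3C counted from the first base of mt-Nd3, which is in capitals in the first 60 bases of each (chrM:9459-9518, plus strand, and chr1:24613060-24613119, minus strand).
mt-Nd3: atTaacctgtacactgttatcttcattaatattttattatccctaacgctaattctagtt
Gm28438: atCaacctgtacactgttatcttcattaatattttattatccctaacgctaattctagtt
Gm28438 held 47.1% of their joint counts, from 19.5% to 69.0% in single libraries. mt-Atp6, the proton channel subunit of ATP synthase, left 97.6% of the joint counts on Gm10925 (0 mismatches in 678 bases), and mt-Co3 of complex IV left 93.4% on Gm28437. The remaining mitochondrially encoded members kept most of their counts, with 18.0% on the copy for mt-Nd4, 8.72% for mt-Nd4l and under 1% for the others. The rows of mt-Co2, mt-Co3, mt-Atp6 and mt-Nd3 are therefore uncertain, and values with the copies added are given beside them.

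Nuclear encoded members shared counts in the same way with processed pseudogenes. The c subunit gene Atp5g2 had 96.2% of its joint counts on its copies, Ndufb4 had 66.7%, Cox7c 51.1%, Atp5l 43.8%, Ndufa12 19.9% and Ndufs5 15.1%. Cox7c, a small subunit of complex IV (gene at chr13:86044816-86046904, minus strand), and Gm12338 (chr11:75599763-75599954, minus strand) were identical over 192 bases, of which the first 60 are shown once for both.
Cox7c and Gm12338: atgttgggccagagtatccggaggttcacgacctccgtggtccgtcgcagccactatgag
In total, 72 of the 79 tested nuclear encoded members had under 10% of their joint counts on such copies and were not themselves one.

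**Figure D1:**
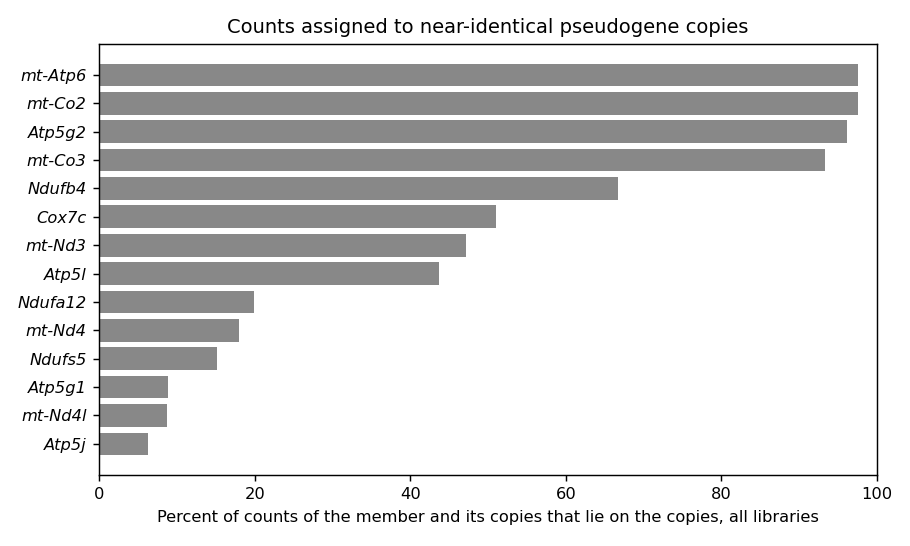
Bars give the percent of the joint counts of a member and its near-identical pseudogene copies that lay on the copies, summed over the 10 libraries, for members with at least 5%. mt-Atp6, mt-Co2, Atp5g2 and mt-Co3 are above 90%.

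The median change from PRO to DIFF was positive for the mitochondrially and negative for the nuclear encoded members. In WT, 5 of 13 mitochondrially encoded members rose and 0 fell (edgeR's quasi-likelihood test, Benjamini-Hochberg adjusted p below 0.05), against 30.8% higher and 31.2% lower among all 16797 genes tested. Of 79 nuclear encoded members, 48 fell and 1 rose. The median log2 fold change was 0.34 for the mitochondrially and -0.38 for the nuclear encoded members, beside 0.03 for all genes. In p27KO, 4 mitochondrially encoded members rose and 0 fell, while 47 nuclear encoded members fell and 1 rose, with 24.3% of all genes higher and 27.3% lower. The medians there were 0.42 and -0.43, beside -0.01 for all genes. That 0.42 is the value of mt-Co2, one of the uncertain rows. With copies added, the mitochondrial median was 0.35 in WT and 0.24 in p27KO. Among the 8 mitochondrially encoded members with under 10% of joint counts on copies, it was 0.46 in WT and 0.30 in p27KO. As counted, the p27KO mitochondrial median was 0.05 without p27KO DIFF replicate 1, and the count of nuclear encoded falls was 23 without p27KO DIFF replicate 2. The share of all genes that fell without that library is not given. The share of mitochondrially encoded members that rose, 38.5% in WT and 30.8% in p27KO, was near that of all genes. At unadjusted p below 0.05, 0 mitochondrially encoded members were lower in either genotype, and DESeq2 also called 0 lower. In bulk RNA, fewer cells of a type and less RNA per cell cannot be told apart.

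The summed counts moved apart in the same way in every library. The 13 mitochondrial mRNAs with their copies took 6.06%, 5.98% and 5.02% of all counts in WT PRO, 7.49%, 9.31% and 8.09% in WT DIFF, 5.65% and 7.01% in p27KO PRO, and 8.80% and 8.12% in p27KO DIFF. All DIFF libraries were above all PRO libraries. The nuclear encoded members took 1.07%, 1.09% and 1.03% in WT PRO, 0.753%, 0.864% and 0.906% in WT DIFF, 1.12% and 1.01% in p27KO PRO, and 0.876% and 0.806% in p27KO DIFF. Here every DIFF library was below every PRO library. The ratio of mitochondrial to nuclear encoded counts within a library, which does not depend on library scaling, was 4.89 to 6.93 in PRO and 8.92 to 10.8 in DIFF. Counts are not corrected for gene length in these sums.

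**Figure D2:**
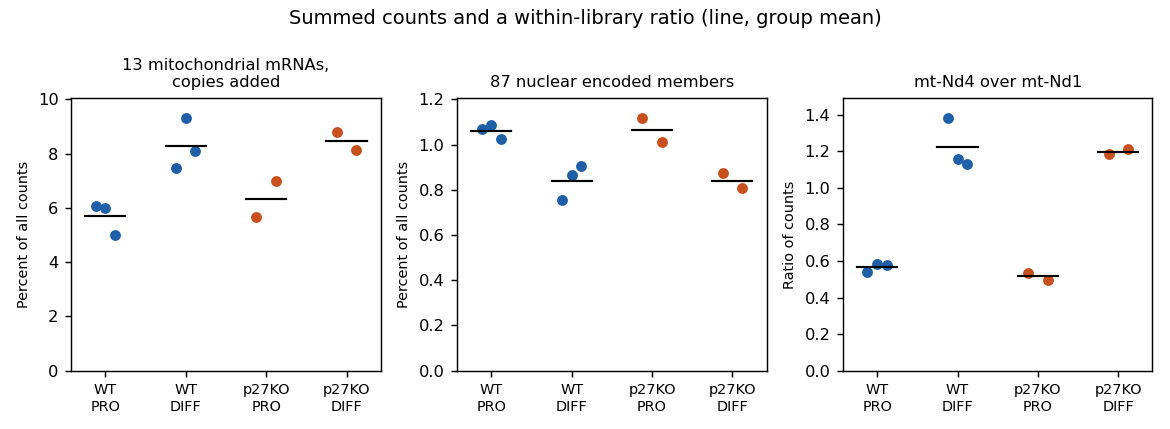
Points are libraries and lines group means. The left and middle panels give the percent of all counts on the 13 mitochondrial mRNAs with copies and on the 87 nuclear encoded members, and the right panel the ratio of mt-Nd4 to mt-Nd1 counts. DIFF libraries lie above PRO libraries on the left (7.49% to 9.31% against 5.02% to 7.01%) and below them in the middle (0.753% to 0.906% against 1.01% to 1.12%).

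The mitochondrial mRNAs did not move as one. Those past the threshold in both genotypes were mt-Nd4l, mt-Nd4, mt-Nd5 and mt-Nd6, which follow each other on the mitochondrial genome from chrM:9877 to chrM:14070 and encode subunits of the membrane arm of complex I. mt-Nd4, a proton-pumping subunit, was at 3141, 3368 and 2756 CPM in WT PRO, 6101, 7361 and 6333 CPM in WT DIFF, 2963 and 3711 CPM in p27KO PRO, and 7297 and 6753 CPM in p27KO DIFF. The lowest DIFF library was well above the highest PRO library. Its log2 fold change was 0.99 ± 0.13 (SE, adjusted p = 9.4e-05) in WT and 0.97 ± 0.16 (adjusted p = 0.00065) in p27KO by edgeR's quasi-likelihood test.

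mt-Nd5, another pumping subunit, was at 2345, 2544 and 2274 CPM in WT PRO, 4567, 5514 and 4664 CPM in WT DIFF, 2121 and 2795 CPM in p27KO PRO, and 4718 and 4485 CPM in p27KO DIFF. The groups did not overlap in either genotype. The log2 fold changes were 0.94 ± 0.13 in WT and 0.80 ± 0.16 in p27KO (edgeR adjusted p = 0.00013 and 0.0019). mt-Nd4l, the smallest of this run, rose by 0.89 ± 0.11 and 0.59 ± 0.14 on the log2 scale (edgeR adjusted p = 7.2e-05 and 0.0051). It overlaps the start of mt-Nd4, so counts at that border may be shared.

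mt-Nd6 (chrM:13552-14070, minus strand) is the member read from the light strand. It was at 744, 654 and 711 CPM in WT PRO, 1420, 1771 and 1541 CPM in WT DIFF, 555 and 869 CPM in p27KO PRO, and 1583 and 1496 CPM in p27KO DIFF. Its DIFF values were all above its PRO values. The log2 fold changes of 1.06 ± 0.16 and 1.01 ± 0.20 (edgeR adjusted p = 0.00023 and 0.0017) were close to those of the opposite-strand neighbour mt-Nd5. The strand setting of the counting is not given in the sources used here, so reads from mt-Nd6 and from the opposite strand across it cannot be told apart.

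mt-Co1, the catalytic core of complex IV, had the highest level per kilobase of exon of all members as counted, with a mean of 11010 CPM per kb over the 10 libraries. This order leaves out the counts of mt-Atp6 and others that lie on copies. It was at 13731, 14268 and 10887 CPM in WT PRO, 19802, 22832 and 19905 CPM in WT DIFF, 12439 and 15562 CPM in p27KO PRO, and 20685 and 19998 CPM in p27KO DIFF. Groups did not overlap in either genotype. It rose in WT (log2 fold change 0.58 ± 0.14, edgeR adjusted p = 0.0045), and in p27KO the change of 0.44 ± 0.17 missed the threshold (edgeR adjusted p = 0.055). In p27KO mt-Co1 was called with DESeq2, with its size factors, with the study's filter, with a replicate block, and without WT DIFF replicate 2, WT PRO replicate 3 or p27KO PRO replicate 2. The test of the difference between the genotypes gave -0.15 ± 0.22 (unadjusted p = 0.52).

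**Figure D3:**
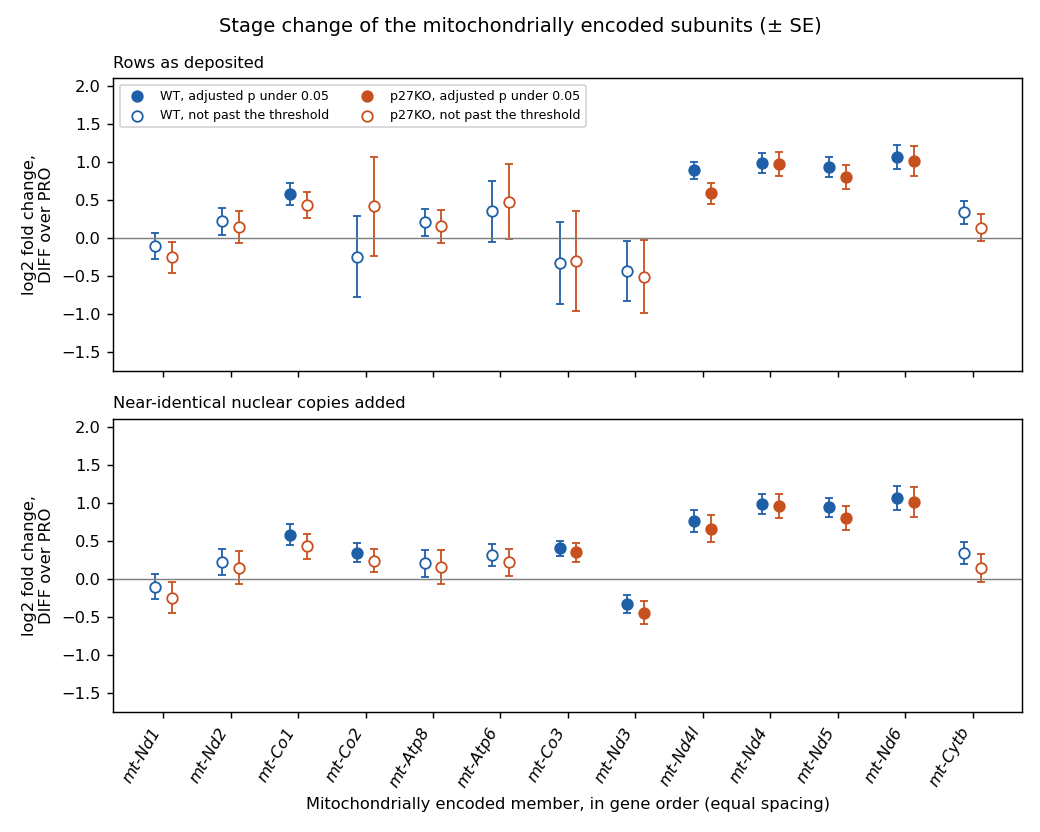
Points are log2 fold changes of DIFF over PRO with SE for the 13 mitochondrially encoded members in gene order, in WT and p27KO, as counted (top) and with near-identical nuclear copies added (bottom). mt-Nd4l to mt-Nd6 lie between 0.59 and 1.06 in the top panel, and the wide errors of mt-Co2, mt-Co3, mt-Atp6 and mt-Nd3 narrow in the bottom panel.

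The other mitochondrially encoded members did not pass in either genotype as counted. mt-Nd1, a core subunit of complex I, was at 5811, 5790 and 4763 CPM in WT PRO, 4419, 6353 and 5606 CPM in WT DIFF, 5526 and 7479 CPM in p27KO PRO, and 6159 and 5573 CPM in p27KO DIFF. PRO and DIFF overlapped throughout, and the log2 fold changes were -0.10 ± 0.17 in WT and -0.25 ± 0.20 in p27KO (edgeR adjusted p = 0.62 and 0.33). mt-Nd2 gave 0.22 ± 0.17 and 0.15 ± 0.21, and mt-Atp8 0.21 ± 0.18 and 0.16 ± 0.22 (edgeR adjusted p from 0.29 to 0.58). mt-Cytb, the mitochondrially encoded subunit of complex III, was at 8430, 7917 and 6653 CPM in WT PRO and 9323, 11926 and 10006 CPM in WT DIFF, and at 7798 and 10106 CPM in p27KO PRO against 11161 and 10020 CPM in p27KO DIFF. Its WT groups did not overlap but its change of 0.34 ± 0.15 had an edgeR adjusted p of 0.07, and in p27KO, where the groups overlapped, it was 0.14 ± 0.18. In WT mt-Cytb was called with DESeq2, with the study's filter, with a replicate block that crosses the p27KO numbers, and without WT DIFF replicate 1 or p27KO PRO replicate 1.

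Ratios between mitochondrial mRNAs of the same library show the unequal change without any scaling between libraries. The ratio of mt-Nd4 to mt-Nd1 counts was 0.540, 0.582 and 0.578 in WT PRO, 1.38, 1.16 and 1.13 in WT DIFF, 0.536 and 0.496 in p27KO PRO, and 1.18 and 1.21 in p27KO DIFF. No PRO library came near a DIFF library. With mt-Nd1 as the reference, mt-Nd2, mt-Nd4, mt-Nd5, mt-Nd6, mt-Cytb and mt-Co1 were higher in all DIFF than in all PRO libraries, while mt-Nd3 with its copy overlapped (0.152 to 0.195 in PRO and 0.137 to 0.174 in DIFF). mt-Nd5 went from between 0.374 and 0.477 to between 0.766 and 1.03, mt-Nd6 from 0.100 to 0.149 up to 0.257 to 0.321, and mt-Co1 from 2.08 to 2.46 up to 3.36 to 4.48. For mt-Cytb the ratio was 1.35 to 1.45 in PRO and 1.79 to 2.11 in DIFF, and for mt-Nd2 it was 0.637 to 0.709 and 0.803 to 0.883. These ratios were chosen after the values were seen and carry no test.

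**Figure D4:**
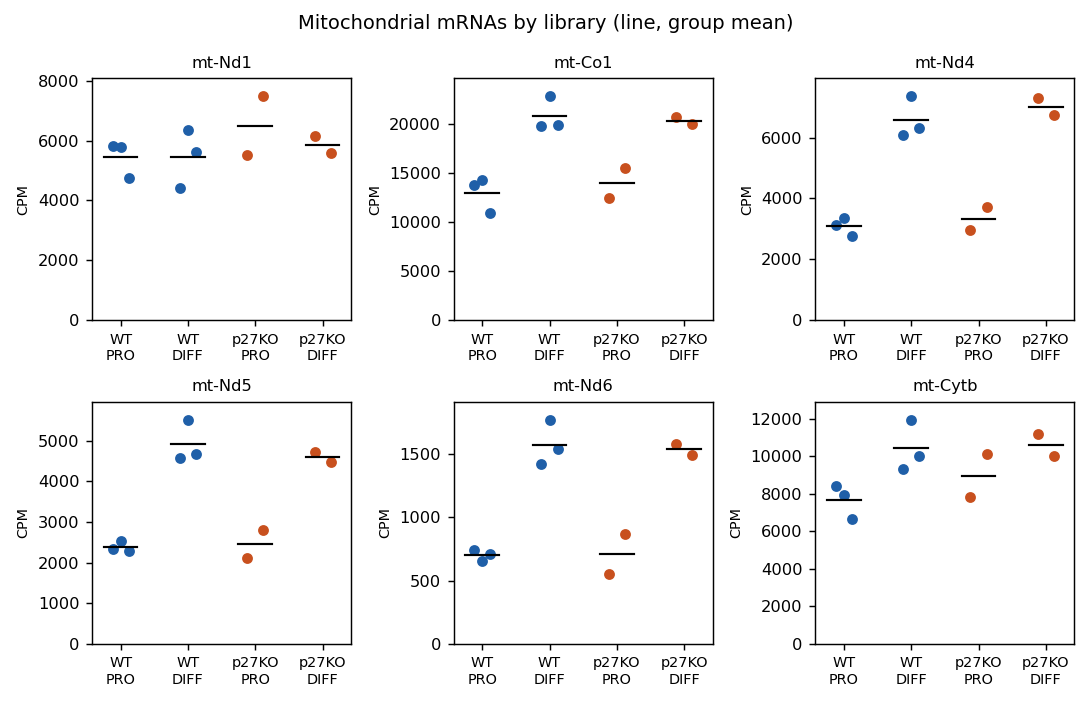
Levels in CPM of 6 mitochondrial mRNAs in each library, with lines at group means and axes from 0. mt-Nd4, mt-Nd5 and mt-Nd6 separate DIFF from PRO, whereas mt-Nd1 overlaps (4419 to 6353 CPM in WT DIFF and 4763 to 5811 CPM in WT PRO).

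With the copies added, an alternative chosen after the copies were seen, the uncertain rows tightened. mt-Co3 was at 4314, 4239 and 3521 CPM in WT PRO and 5580, 5943 and 5640 CPM in WT DIFF, with log2 fold changes of 0.40 ± 0.10 in WT and 0.35 ± 0.12 in p27KO (edgeR adjusted p = 0.0053 and 0.035). As counted, mt-Co3 gave -0.33 ± 0.54 and -0.30 ± 0.66. mt-Co2 gave 0.35 ± 0.13 in WT (edgeR adjusted p = 0.034) and 0.24 ± 0.15 in p27KO (adjusted p = 0.21), compared with -0.24 ± 0.53 and 0.42 ± 0.65 as counted.

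mt-Nd3 with its copy was the only mitochondrially encoded member that fell when copies were added. Its summed level was 1107, 987 and 930 CPM in WT PRO, 770, 917 and 895 CPM in WT DIFF, 1072 and 1137 CPM in p27KO PRO, and 979 and 762 CPM in p27KO DIFF. The groups did not overlap in either genotype, with log2 fold changes of -0.33 ± 0.12 and -0.44 ± 0.15 (edgeR adjusted p = 0.037 and 0.029). It lies between mt-Co3 and mt-Nd4l on the genome, both of which rose with copies added. mt-Atp6 with its copy did not pass, at 0.31 ± 0.15 and 0.22 ± 0.18 (edgeR adjusted p = 0.087 and 0.33). By this count, 7 mitochondrially encoded members rose and 1 fell in WT, and 5 rose and 1 fell in p27KO. The shares over all genes with copies added are not given.

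The 2 mitochondrial ribosomal RNAs, which are no members, lay lower in DIFF by point estimate. How fully these polyA RNA libraries capture them is not known, since the study's methods describe no selection step. mt-Rnr2 was at 2993, 2996 and 3709 CPM in WT PRO, 1291, 2842 and 2465 CPM in WT DIFF, 3449 and 4410 CPM in p27KO PRO, and 2655 and 1885 CPM in p27KO DIFF. Its log2 fold changes of -0.66 ± 0.28 and -0.89 ± 0.34 missed the threshold (edgeR adjusted p = 0.065 and 0.053), as did those of mt-Rnr1 (-0.79 ± 0.46 and -1.58 ± 0.58, edgeR adjusted p = 0.17 and 0.051).

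Nuclear encoded members fell in each complex, by small amounts for most. Of those tested, 41 fell in both genotypes, 7 in WT alone by the threshold, 6 in p27KO alone by the threshold, and 25 in neither. The matching shares over all genes were not computed, so this split cannot be read as particular to the members. In WT, 20 of 37 complex I members, 2 of 4 of complex II, 6 of 8 of complex III, 8 of 13 of complex IV and 12 of 17 of ATP synthase were lower, with 31.2% lower among all genes. The medians by complex were -0.33, -0.38, -0.46, -0.37 and -0.44. In p27KO the counts were 20, 2, 6, 8 and 11, with 27.3% lower among all genes and medians of -0.40, -0.33, -0.45, -0.38 and -0.49. Leaving out members with 10% or more of their counts on copies, 45 of 72 fell in WT and 44 of 72 in p27KO. Members named below beyond those picked by size of change, paralogy, abundance or the X chromosome were chosen for their role, after their values were seen. Those picked by size of change had to pass the threshold with groups that did not overlap. Their separation thus follows from the choice and is no further support.

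**Figure D5:**
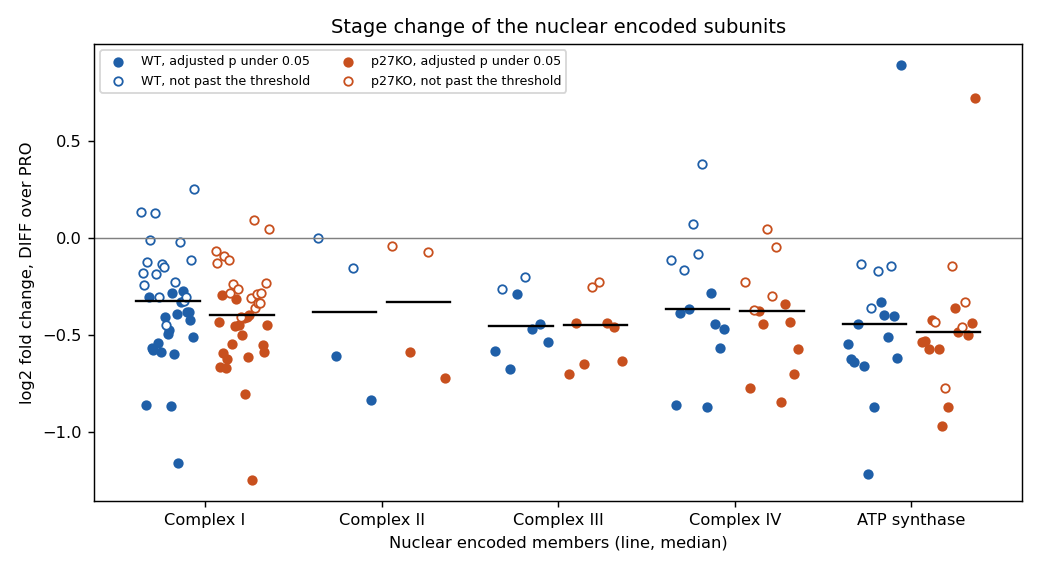
Each point is the log2 fold change of DIFF over PRO of a nuclear encoded member, by complex and genotype, and lines are medians. Medians lie between -0.33 and -0.49 in every complex, and the filled point above 0 in each genotype is Atp5s (0.89 and 0.72).

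In complex I, the steepest fall was that of Ndufc2, an accessory subunit of the membrane arm and the most abundant nuclear encoded complex I member per kilobase of exon. Ndufc2 was at 211, 215 and 186 CPM in WT PRO, 91.8, 98.6 and 103 CPM in WT DIFF, 205 and 180 CPM in p27KO PRO, and 91.9 and 81.9 CPM in p27KO DIFF. DIFF levels were about as far below PRO in both genotypes, with log2 fold changes of -1.16 ± 0.09 and -1.25 ± 0.12 (edgeR adjusted p = 3.2e-06 and 1.8e-05). Ndufb6, another membrane arm accessory subunit, was at 38.5, 38.6 and 37.1 CPM in WT PRO, 20.1, 21.8 and 25.3 CPM in WT DIFF, 42.4 and 33.7 CPM in p27KO PRO, and 23.9 and 22.7 CPM in p27KO DIFF. It fell by 0.87 ± 0.11 and 0.81 ± 0.14 on the log2 scale (edgeR adjusted p = 9.2e-05 and 0.00086).

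Members of the NADH-oxidizing arm of complex I differed among themselves. Ndufv2, Ndufa2, Ndufa12 and Ndufs8 fell in both genotypes, with log2 fold changes from -0.30 for Ndufa2 to -0.86 for Ndufa12 in WT and from -0.45 for Ndufv2 to -0.66 for Ndufa12 in p27KO. Ndufv1, which binds the flavin that accepts electrons from NADH, was at 76.3, 83.3 and 79.3 CPM in WT PRO and 73.6, 79.8 and 83.9 CPM in WT DIFF. PRO and DIFF overlapped, and its log2 fold change was -0.11 ± 0.08 (edgeR adjusted p = 0.25), with -0.23 ± 0.10 in p27KO (adjusted p = 0.074). Ndufs1, the largest iron-sulfur subunit of that arm, gave -0.02 ± 0.16 and 0.09 ± 0.20 (edgeR adjusted p = 0.91 and 0.72). Ndufa4, grouped here with complex I by its symbol though it is known as a component of complex IV, fell by 0.57 ± 0.11 and 0.67 ± 0.13 (edgeR adjusted p = 0.0011 and 0.0019).

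Complex II split evenly between subunits. Sdhd, a membrane anchor, was at 109, 112 and 97.3 CPM in WT PRO, 57.6, 68.2 and 65.6 CPM in WT DIFF, 102 and 93.1 CPM in p27KO PRO, and 66.2 and 60.9 CPM in p27KO DIFF. It fell by 0.84 ± 0.10 and 0.72 ± 0.12 on the log2 scale, and the iron-sulfur subunit gene Sdhb by 0.61 ± 0.10 and 0.59 ± 0.12 (edgeR adjusted p at most 0.0025 for both). Sdha, the flavoprotein that oxidizes succinate and the most abundant complex II member per kilobase, was at 332, 387 and 334 CPM in WT PRO, 331, 409 and 387 CPM in WT DIFF, 362 and 353 CPM in p27KO PRO, and 387 and 358 CPM in p27KO DIFF. Its groups overlapped and its log2 fold changes were 0.00 ± 0.10 and -0.04 ± 0.13 (edgeR adjusted p = 0.98 and 0.80). Sdhc, the other anchor, gave -0.16 ± 0.12 and -0.07 ± 0.15 (edgeR adjusted p = 0.28 and 0.71).

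In complex III, Uqcrb fell by 0.68 ± 0.13 in WT and 0.65 ± 0.16 in p27KO on the log2 scale (edgeR adjusted p = 0.0011 and 0.0061). The Rieske iron-sulfur protein gene Uqcrfs1 fell by 0.47 ± 0.12 and 0.44 ± 0.14 (edgeR adjusted p = 0.0051 and 0.025). Uqcrh, the hinge protein gene and the most abundant nuclear encoded member of the complex per kilobase, was at 169, 184 and 166 CPM in WT PRO, 112, 147 and 152 CPM in WT DIFF, 192 and 148 CPM in p27KO PRO, and 140 and 125 CPM in p27KO DIFF. DIFF stayed below PRO in both, though narrowly in p27KO, with log2 fold changes of -0.44 ± 0.14 and -0.46 ± 0.17 (edgeR adjusted p = 0.015 and 0.039). The Uqcrh call was lost in WT without WT PRO replicate 2, and in p27KO without either p27KO DIFF library, p27KO PRO replicate 1 or WT PRO replicate 1 or 2. The core protein gene Uqcrc2 did not pass, at -0.20 ± 0.11 and -0.23 ± 0.14 (edgeR adjusted p = 0.14 and 0.20).

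In complex IV, Cox7a2 fell most among members past the threshold in WT. Cox7a2 was at 104 ± 3.90 CPM in WT PRO (SD, n = 3), 54.6, 61.0 and 67.8 CPM in WT DIFF, 119 and 92.5 CPM in p27KO PRO, and 66.4 and 59.8 CPM in p27KO DIFF. Its groups were apart in both genotypes, with log2 fold changes of -0.87 ± 0.11 and -0.84 ± 0.14 (edgeR adjusted p = 8.1e-05 and 0.00061). Cox5a, an early-assembling subunit, was close to it at -0.86 ± 0.10 and -0.77 ± 0.12 (edgeR adjusted p = 3.4e-05 and 0.00044). Cox4i1, its partner in assembly, was at 264, 281 and 257 CPM in WT PRO and 238, 266 and 291 CPM in WT DIFF, and its changes of -0.11 ± 0.10 and -0.23 ± 0.12 did not pass (edgeR adjusted p = 0.33 and 0.13). Cox6b1, the most abundant nuclear encoded member of the complex per kilobase, fell by 0.37 ± 0.10 and 0.44 ± 0.12 (edgeR adjusted p = 0.008 and 0.011). Cox7c with its copies fell by 0.62 ± 0.10 and 0.74 ± 0.13 (edgeR adjusted p = 0.00041 and 0.00076), and by 0.57 ± 0.19 and 0.70 ± 0.23 as counted.

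Of the genes for the catalytic head of ATP synthase, Atp5a1, Atp5b, Atp5c1 and Atp5d fell in both genotypes. The epsilon subunit gene Atp5e did not pass, at -0.14 ± 0.17 and -0.43 ± 0.21 (edgeR adjusted p = 0.51 and 0.11). Atp5a1, the alpha subunit gene and the most abundant nuclear encoded member per kilobase, was at 1147, 1219 and 1108 CPM in WT PRO, 776, 890 and 886 CPM in WT DIFF, 1236 and 1114 CPM in p27KO PRO, and 901 and 834 CPM in p27KO DIFF. All DIFF libraries were below all PRO libraries, with log2 fold changes of -0.55 ± 0.09 and -0.54 ± 0.11 (edgeR adjusted p = 0.00051 and 0.0028). Atp5b, the beta subunit gene, fell by 0.63 ± 0.11 and 0.53 ± 0.13, and Atp5c1, the gamma subunit gene, by 0.64 ± 0.11 and 0.57 ± 0.13 (edgeR adjusted p at most 0.0063 for both).

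The 3 genes of the c subunit, which give the same mature ring protein, behaved in part alike. Atp5g3 was at 312, 311 and 283 CPM in WT PRO, 164, 184 and 182 CPM in WT DIFF, 322 and 280 CPM in p27KO PRO, and 185 and 168 CPM in p27KO DIFF, and fell by 0.88 ± 0.09 and 0.87 ± 0.11 on the log2 scale (edgeR adjusted p = 1.8e-05 and 0.00013). Atp5g1 was at 78.4, 65.1 and 55.1 CPM in WT PRO, 27.7, 32.4 and 31.4 CPM in WT DIFF, 52.7 and 68.1 CPM in p27KO PRO, and 33.9 and 32.3 CPM in p27KO DIFF. This was the largest fall of any member in WT, at -1.22 ± 0.14, with -0.97 ± 0.18 in p27KO (edgeR adjusted p = 4.4e-05 and 0.0012). Atp5g2 with its copies gave -0.41 ± 0.17 in WT (edgeR adjusted p = 0.06) and fell by 0.75 ± 0.21 in p27KO (adjusted p = 0.014). As counted, Atp5g2 was at 3.19 to 5.63 CPM in the WT libraries, a remainder next to its copies. Atp5g3 made up 88.4% to 90.9% of the 3 genes' summed CPM per kilobase. Of their CPM it made up 79.0% to 84.3% as counted and 48.3% to 63.9% with copies added.

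Atp5s, a coupling factor of ATP synthase rather than a core subunit, was the nuclear encoded member that rose in each genotype. It was at 5.47, 5.62 and 5.49 CPM in WT PRO, 8.09, 13.6 and 11.3 CPM in WT DIFF, 7.68 and 5.85 CPM in p27KO PRO, and 11.8 and 12.2 CPM in p27KO DIFF. DIFF was above PRO in both, with log2 fold changes of 0.89 ± 0.20 and 0.72 ± 0.24 (edgeR adjusted p = 0.0026 and 0.027). In p27KO the number of nuclear encoded rises was 0 without p27KO PRO replicate 2, without p27KO DIFF replicate 1 or without p27KO DIFF replicate 2.

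Paralogs that other tissues use in place of these subunits were at or near background. Cox6a2, the heart and muscle form, had 0 to 7 counts per library against 2789 to 4289 for Cox6a1, and Cox4i2, the lung form, had 0 to 5 counts against 4686 to 7364 for Cox4i1. Cox8b had 0 to 10 counts and Cox7b2 0 to 4. Cox8c had 0 counts in every library, which allows up to 3 counts of 19190068 in the smallest, an interval that covers counting error only. Cox6b2, the testis form, made up 0.197% to 0.822% of the Cox6b1 and Cox6b2 sum in CPM per kilobase. Cox7a1, the muscle form, had 1 to 14 counts. Within the Cox7a set, the share of Cox7a2 in CPM per kilobase was 55.4% in WT PRO and 45.1% in WT DIFF, and 55.0% and 46.3% in p27KO (group means). The remainder was almost all Cox7a2l, known for its part in supercomplexes of the chain, which fell less (log2 fold change -0.28 ± 0.09 and -0.34 ± 0.12, edgeR adjusted p = 0.023 and 0.03).

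No member was called between the genotypes, where few of all genes were called either. For the difference between the p27KO and the WT stage change, edgeR's quasi-likelihood test called 0 of 92 members, with 0.28% of all genes called, and 0 members had an unadjusted p below 0.05. For p27KO DIFF against WT DIFF it called 0 members with 1.49% of all genes called, and 4 were lower in p27KO at an unadjusted p below 0.05 (Ndufa2, Ndufa6, Ndufb9 and Uqcr11). For p27KO PRO against WT PRO it called 0 members with 0.0536% of all genes called, and 2 were higher at an unadjusted p below 0.05 (mt-Nd4l and Ndufb3). By that test, an unadjusted p below 0.05 was found for 3.88%, 12.5% and 4.55% of all genes in these 3 comparisons, in that order. The members' share was below that of all genes in each. DESeq2 called 0 members in each of these 3 comparisons, though in the first 2 it gave an adjusted p for only 90 of the 92 members. SEs of the difference between the stage changes ran from 0.11 for Ndufa8 to 1.12 for Cox7a1, and a difference of the size of its SE would not pass the test.

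The X-linked members are the ones on which sex could bear directly. Ndufa1, a membrane arm subunit of complex I, was at 36.3, 38.5 and 32.9 CPM in WT PRO, 40.4, 40.5 and 45.8 CPM in WT DIFF, 40.7 and 32.3 CPM in p27KO PRO, and 38.3 and 36.4 CPM in p27KO DIFF, with no change past the threshold (0.13 ± 0.11 and -0.07 ± 0.13, edgeR adjusted p = 0.30 and 0.68). Ndufb11 gave -0.14 ± 0.10 in WT (edgeR adjusted p = 0.25) and -0.32 ± 0.12 in p27KO (adjusted p = 0.048). That p27KO call of Ndufb11 was lost whichever p27KO library was left out and under most alternatives. Cox7b fell by 0.44 ± 0.13 and 0.44 ± 0.16 (edgeR adjusted p = 0.012 and 0.039). Tests of the difference between the genotypes gave unadjusted p = 0.26, 0.27 and 0.97 for Ndufa1, Ndufb11 and Cox7b.

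Other genes of the pathway were read against the share of all genes that fell (31.2% in WT and 27.3% in p27KO) or rose (30.8% and 24.3%). Among the mobile electron carriers, cytochrome c (Cycs) was at 173, 158 and 153 CPM in WT PRO, 35.6, 57.6 and 49.4 CPM in WT DIFF, 171 and 160 CPM in p27KO PRO, and 64.5 and 58.2 CPM in p27KO DIFF. Its falls of 1.86 ± 0.16 and 1.53 ± 0.19 on the log2 scale (edgeR adjusted p = 4.6e-06 and 0.00012) were larger than that of any subunit member. Cyc1 encodes a heme-carrying subunit of complex III rather than a mobile carrier, and its symbol lies outside the rule for members. It fell by 0.74 ± 0.10 and 0.91 ± 0.12 (edgeR adjusted p = 8.9e-05 and 0.00016). Of 49 assembly factors tested, 28 fell and 2 rose in WT, and 19 fell and 1 rose in p27KO. By complex, the WT falls were 11 of 16 for complex I, 1 of 4 for complex II, 3 of 6 for complex III, 10 of 20 for complex IV and 3 of 3 for ATP synthase. The p27KO falls were 7, 1, 2, 9 and 0. The counts for complexes II and III in p27KO and for complex II in WT are near the share over all genes. The largest fall past the threshold in WT was that of Ndufaf4, a complex I assembly factor, at -1.62 ± 0.13 and -1.29 ± 0.15 (edgeR adjusted p = 2.6e-06 and 8.4e-05), while Ttc19 of complex III rose in both (0.45 ± 0.08 and 0.45 ± 0.10, edgeR adjusted p = 0.00062 and 0.0032).

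Of 30 tested genes for mitochondrial transcription and mRNA stability, 19 fell and 6 rose in WT, and 15 fell and 4 rose in p27KO, beside 31.2% and 27.3% lower among all genes. Tfam, which packages mitochondrial DNA and starts its transcription, was at 45.5, 51.6 and 53.9 CPM in WT PRO, 30.4, 28.2 and 33.6 CPM in WT DIFF, 58.5 and 41.4 CPM in p27KO PRO, and 33.3 and 34.8 CPM in p27KO DIFF. It fell by 0.82 ± 0.13 and 0.65 ± 0.16 on the log2 scale (edgeR adjusted p = 0.00031 and 0.0056). Lrpprc, which holds mitochondrial mRNAs stable, fell by 0.90 ± 0.08 and 0.69 ± 0.10, and Polg, the mitochondrial DNA polymerase, by 1.37 ± 0.09 and 1.45 ± 0.11 (edgeR adjusted p at most 0.00029 for both). Top1mt, the mitochondrial topoisomerase, rose by 1.49 ± 0.31 and 1.29 ± 0.37 from 1.64 to 2.64 CPM in PRO libraries (edgeR adjusted p = 0.0017 and 0.015), and Mterf2 and Mterf3, of the transcription terminator family, also rose in both (Mterf3 by 0.47 ± 0.09 and 0.44 ± 0.11, edgeR adjusted p = 0.0012 and 0.0073). Of 78 mitochondrial ribosomal protein genes, 67 fell and 0 rose in WT and 65 fell and 0 rose in p27KO, with medians of -0.65 and -0.67.

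Of 10 regulators of nuclear encoded subunits, 5 fell in WT and 6 in p27KO and 0 rose, beside 31.2% and 27.3% lower among all genes. Pprc1, a coactivator of the PGC-1 family, fell by 2.07 ± 0.12 and 1.98 ± 0.15 on the log2 scale (edgeR adjusted p = 3.4e-07 and 4.7e-06), and Gabpb1, a subunit of the ETS factor GABP, by 0.98 ± 0.08 and 0.88 ± 0.10 (edgeR adjusted p = 4e-06 and 6.1e-05). Esrra, Nrf1 and Yy1 also fell in both genotypes. Ppargc1a, the PGC-1 coactivator best known for mitochondrial biogenesis, gave -0.01 ± 0.19 and 0.30 ± 0.23 (edgeR adjusted p = 0.96 and 0.29), and Gabpa 0.04 ± 0.08 and 0.21 ± 0.10 (adjusted p = 0.70 and 0.099).

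Promoters were looked at because so many nuclear encoded members moved together. RefSeq promoter windows (GRCm38.p6, 250 bases before to 50 after the start) were matched for 64 of 79 tested nuclear encoded members and searched on both strands for 3 motif cores. GCGCATGC, of NRF1, was found in 15.6% of the members' and 2.80% of all 27025 promoters. CCGGAAGT, of ETS factors such as GABPA, was found in 7.81% and 4.0%, and AAGATGGCG, of YY1, in 9.38% and 1.49%. Any of the 3 was held by 20 members, 11 of the 40 that fell in WT and 9 of the 24 others. The 27025 promoters were not limited to the genes tested here, as the members' were, so the 2 shares come from unlike sets. A match is a description and not a binding site. The 200-base stretches shown run from 170 bases before to 30 after the start, with motif matches in capitals, for a member with NRF1 letters on both strands that overlap (Cox6a1, chr5:115348929-115349128, minus strand), a member with the ETS letters (Uqcrh, chr4:116075041-116075240, minus strand), and the complex I member that fell most, which held none of the 3 (Ndufc2, chr7:97399833-97400032, plus strand).
Cox6a1: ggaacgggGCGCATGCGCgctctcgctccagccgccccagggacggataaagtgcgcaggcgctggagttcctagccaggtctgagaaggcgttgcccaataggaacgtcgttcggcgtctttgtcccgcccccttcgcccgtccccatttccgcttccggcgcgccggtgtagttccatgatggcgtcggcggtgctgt
Uqcrh: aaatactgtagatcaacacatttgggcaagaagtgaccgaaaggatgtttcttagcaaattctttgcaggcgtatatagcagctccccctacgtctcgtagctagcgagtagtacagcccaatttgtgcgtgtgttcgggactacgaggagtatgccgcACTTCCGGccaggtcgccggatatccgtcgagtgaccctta
Ndufc2: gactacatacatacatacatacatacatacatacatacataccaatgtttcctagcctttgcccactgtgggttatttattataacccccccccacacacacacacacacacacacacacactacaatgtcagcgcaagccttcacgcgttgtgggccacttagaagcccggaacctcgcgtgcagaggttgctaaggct

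Proliferation markers moved with the stage, while the other marker lists moved in part or were near 0. All 3 proliferation markers (Mki67, Top2a and Ccnb1) fell in both genotypes, and their summed level was 1681 to 1846 CPM in WT PRO, 123 to 234 in WT DIFF, 1812 to 1937 in p27KO PRO and 589 to 685 in p27KO DIFF. Of 4 astrocyte markers, 2 rose in both, and the sum was 117 to 218 CPM in WT PRO, 477 to 910 in WT DIFF, 178 to 229 in p27KO PRO and 1025 to 1045 in p27KO DIFF. Among all genes, 30.8% rose and 31.2% fell in WT, and 24.3% rose and 27.3% fell in p27KO. Of 4 oligodendrocyte lineage markers tested, 3 rose in WT and 2 in p27KO (sums of 8.90 to 29.6 CPM in PRO and 56.1 to 131 in DIFF), and of 5 neuronal markers tested, 2 rose in WT and 1 in p27KO (11.6 to 35.6 CPM in PRO and 32.3 to 89.7 in DIFF). Of 6 NSC/NPC markers, 2 fell in each genotype and 2 rose in WT and 3 in p27KO, with sums of 6744 to 8439 CPM over all libraries. The neuronal rises and the NSC/NPC falls are near the shares over all genes. Each of the 6 microglial, 3 endothelial and 2 erythroid markers was under 1 CPM in every library, with Cldn5 and Cdh5 at 0 throughout, and 4 mural and fibroblast markers summed to 0.661 to 1.46 CPM in PRO and 3.69 to 10.7 in DIFF. The part of these shifts in the change of the respiratory chain genes was not tested.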

How the data were processed

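The authors deposited gene-level counts for 10 polyA RNA-seq libraries (cDNA made with the Ovation RNA-seq System V2), one table with no normalization. Per the labels and methods, reads were trimmed with cutadapt and Trimmomatic, aligned with STAR to the mouse transcriptome and counted with RSEM (GRCm38, mm10). RSEM splits reads that fit several genes, which divides counts between members and near-identical copies. The values are whole numbers, and versions and the strand setting are not given in the sources used here. Totals were 19190068 to 25291674 counts per library (mean 22701546), and 48435 of 48795 gene identifiers matched GENCODE M21.

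Groups came from titles and genotype labels. The descriptions of the p27KO samples call them WT, so those libraries are named by title and genotype label. Members and lists were chosen with earlier results of these data known. All 16797 genes with at least 10 counts in at least 2 libraries were fitted over the 4 groups together with edgeR 4.0.16 (TMM, quasi-likelihood test) in R 4.3.3, p-values were adjusted by Benjamini-Hochberg over all of them, and a threshold of 0.05 was used. CPM are counts scaled to a common library total, without TMM, and CPM per kilobase divides by the merged exon length, which may exceed the transcript in use. Copies are annotated pseudogenes matching a member over at least 50% of their length at 95% identity or more (BLAST 2.17.0). Values are given for each library, fold changes with their SE. The fit was tested on simulated data.

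Named members were every mitochondrially encoded one, in each stage change the 5 nuclear encoded members with the largest rise and the 5 with the largest fall (past the threshold, mean of at least 10 CPM, groups not overlapping), every member called between genotypes (none), paralog sets, X-linked members and the most abundant nuclear encoded member of each complex.

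WT libraries of the same replicate number deviated together from their group means (correlations of 0.162, 0.221 and 0.233 across genes), so the numbers pair the WT libraries, while the p27KO correlation was -0.118. Alternatives were DESeq2 1.42.0, its size factors, scaling from nuclear genes only, the study's filter, no filter, only the groups compared, a replicate block and leaving out each library. The study's filter drops genes that are under 1 CPM in at least 4 libraries. Copies added and a block with crossed p27KO numbers were chosen after seeing the data. The result of 1 gene is not reported here.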

Additional observations from a re-analysis of the deposited data

How the results depend on the processing

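The medians of the mitochondrial and nuclear encoded members kept opposite signs in both stage changes under every alternative run. The SD between replicates was 0.249 for the mitochondrial and 0.117 for the nuclear median. Some mitochondrial medians were smaller than that SD. In p27KO these were 0.24 with copies added and 0.0538 without p27KO DIFF replicate 1, and in WT 0.22 without WT DIFF replicate 2. The sign of the mitochondrial median is thus less certain than that of the nuclear one. With copies added, 1 mitochondrially encoded member fell in each genotype instead of 0. With the study's filter, 2 nuclear encoded members rose in WT instead of 1, and the falls were 36 in WT and 32 in p27KO. Shares over all genes are given for the main fit only. Counts under the alternatives, here and below, therefore cannot be read as particular to the members. Leaving out 1 library at a time gave 1 to 2 nuclear encoded rises in WT and 0 to 1 in p27KO, 35 to 49 falls in WT and 23 to 50 in p27KO (lowest without WT DIFF replicate 1 and p27KO DIFF replicate 2), mitochondrial medians of 0.22 to 0.47 in WT and 0.0538 to 0.47 in p27KO (lowest without WT DIFF replicate 2 and p27KO DIFF replicate 1), and a mitochondrial median difference between the genotypes' changes of -0.32 to 0.0829 (without p27KO PRO replicate 1 and replicate 2). The cause of these shifts was not tested.

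The replicate block gave libraries of the same number a shared term across both genotypes, though no label ties WT to p27KO libraries. A block within each genotype was not fitted. With the shared block, nuclear encoded falls were 46 in WT and 41 in p27KO, mitochondrial rises 5 and 5, and 0 members differed between genotypes. In p27KO the block added the calls of mt-Co1 and Atp5g2 and removed those of Cox6a1, Cox7b, Uqcrh and Ndufb11, and among named members it changed no other call. The crossed p27KO pairing gave 47 nuclear encoded falls in p27KO.

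Among named members, signs turned only where the change had not passed the threshold. With copies added, mt-Co2 turned to 0.35 in WT and mt-Co3 to 0.40 and 0.35. Cox6b2 in p27KO was -0.015 with the crossed block, and Ndufa1 in p27KO 0.0092 with the study's filter. Sdha in WT was 0.0135 with DESeq2 and with its size factors, 0.0104 with nuclear scaling, 0.0088 with no filter, 0.00 with only the groups compared and 0.0902 with the study's filter, which gave 0.0332 in p27KO. Leaving out 1 library gave, in WT, -0.23 to 0.0535 for mt-Nd1, -0.52 to 0.52 for mt-Co2, -0.74 to 0.15 for mt-Co3, -0.14 to 0.27 for Cox6b2, -0.0732 to 1.39 for Cox7a1 and -0.0798 to 0.10 for Sdha. In p27KO it gave -0.0468 to 0.37 for mt-Nd2, -1.05 to 0.19 for mt-Nd3, -0.0427 to 0.35 for mt-Cytb, -0.17 to 1.42 for mt-Co2, -0.83 to 0.55 for mt-Co3, -0.0345 to 1.28 for mt-Atp6, -0.0621 to 0.41 for mt-Atp8, -0.47 to 0.41 for Cox6b2, -0.19 to 0.12 for Cox7a1, -0.22 to 0.10 for Ndufa1 and -0.11 to 0.0205 for Sdha. Among the members named by rule, called changes that were no longer called under some alternative or without some library were those of Cox7a2l, Cox8a and Uqcrh in both genotypes and of Cox6a1, Cox6b1, Cox7b and Ndufb11 in p27KO (61 of 1228 values of named members), while mitochondrially encoded members kept their calls. Members named for their role were not followed singly. Of all nuclear encoded calls, 35 of 49 in WT were kept without WT DIFF replicate 1. In p27KO, 23 of 48 were kept without p27KO DIFF replicate 2. Among the members named by rule, calls were gained for mt-Cytb, mt-Nd2 and mt-Co2 in WT, mt-Co1 and Atp5g2 in p27KO, and mt-Nd3 and mt-Co3 in both genotypes.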
